A study of Homo sapiens with 6 samples.

Results

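The genes described here are those of HLA class II antigen presentation in MM.1S, a human multiple myeloma cell line: CIITA, CD74, HLA-DRA, HLA-DRB1, HLA-DPA1, HLA-DPB1, HLA-DQA1, HLA-DQB1, HLA-DMA and HLA-DOB. They were chosen by symbol, and all 10 were found among the 60671 genes of the count table, each on 1 Ensembl identifier. RNA was sequenced from 3 libraries of wild-type (WT) cells and 3 libraries of a CD38 knockout (CD38 KO). Per the labels, the knockout was made with CRISPR/Cas9 and is 1 clone that was expanded in bulk, so clone and genotype cannot be told apart. Cells of both groups carried green fluorescent protein and click beetle red luciferase from a lentivirus and were grown in the same medium, with no experimental treatment named in the labels. Before RNA was taken, dead cells were excluded with 7-AAD, and the sorter kept CD38-positive cells from the WT line and CD38-negative cells from the clone. The sort gate thus also goes with genotype and cannot be told apart from it. The comparison was made, per the labels, to describe the knockout phenotype.

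Class II molecules are heterodimers of an alpha and a beta chain that show peptides from the endosomal pathway to CD4+ T cells. The chains assemble with the invariant chain CD74 in the endoplasmic reticulum, proteases in endosomes cut CD74 down to a short peptide in the groove, HLA-DM exchanges that peptide for others, and HLA-DO restrains HLA-DM. CIITA is the transactivator on which transcription of these genes depends. It does not bind DNA itself but is recruited to a shared promoter module, of which the X box is bound by the RFX complex and CREB and the Y box by NF-Y. Plasma cells normally silence CIITA through the repressor BLIMP1, encoded by PRDM1, and class II levels vary between myelomas.

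Total counts were 61515519 to 72335496 per library. Levels are given as CPM, reads of a gene relative to the size of its library, corrected for composition by TMM. CD38, the check of the labels, averaged 40.6 ± 1.90 CPM in WT cells against 0.972 ± 0.322 CPM in the knockout (SD, n = 3 each). Cells had also been sorted on CD38, so this check is not independent of the sort. All 8 plasma cell markers examined were present, with a summed level of 7139 to 7145 CPM in WT and, in the knockout, 9088 to 9121 CPM. They did not move as one. By the edgeR test given below 5 rose, 2 fell and 1 was not past the threshold, which 44.4% of all genes tested passed. JCHAIN rose from 943.2 ± 37.1 to 1950 ± 34.9 CPM and XBP1 from 1315 ± 28.4 to 2217 ± 21.1 CPM (SD, n = 3). SLAMF7 fell from 733.2 ± 2.67 to 565.8 ± 7.02 CPM (SD, n = 3). The labels give the cell type as B lymphoblast. Of 8 B cell markers, 6 were under 1 CPM in both groups, among them MS4A1 and PAX5. The list summed to 28.9 to 29.7 CPM in WT and 23.7 to 25.0 CPM in the knockout. CD79B made up most of this sum and fell from 27.0 ± 0.178 to 22.2 ± 0.790 CPM, while CD79A rose from 0.114 ± 0.064 to 0.344 ± 0.127 CPM (SD, n = 3). Markers of other cells that present antigen by class II were mixed. All 8 monocyte and macrophage markers were under 1 CPM in both groups, with sums of 0.837 to 1.39 CPM in WT and 0.936 to 1.38 CPM in the knockout. The 8 dendritic cell markers summed to 143.7 to 154.6 CPM in WT and 144.3 to 151.8 CPM in the knockout, while CD1C, ITGAX, FCER1A and CLEC10A were under 1 CPM. The 3 that made up most of this sum changed in opposite directions: CLEC9A rose from 20.4 ± 0.483 to 51.3 ± 3.26 CPM, XCR1 fell from 12.1 ± 1.09 to 5.03 ± 0.838 CPM and LAMP3 fell from 116.9 ± 4.99 to 88.3 ± 4.94 CPM (SD, n = 3). Of 8 T and NK cell markers, 7 were under 1 CPM, and CD3E rose from 0.979 ± 0.076 to 4.83 ± 0.359 CPM (SD, n = 3). No marker list had a gene with 0 counts in all 6 libraries. The part of these markers in the results below was not tested, and in such bulk samples fewer cells of a type and less RNA per cell cannot be told apart.

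The promoter module of class II genes and CD74 is shown first, since genes that carry it moved in both directions. RefSeq promoter windows (GRCh38.p14) were found for 8 of the 10 genes, all but CIITA and HLA-DRA. The 250 bases before each start site were searched on both strands for the X box, as its classical consensus with at least 12 of 14 letters matching, and for the Y box, as CCAAT or ATTGG. For 6 of the 8 genes an X box on the strand of the gene was followed within 60 bases by a Y box. The same held for 0.368% of all 34796 distinct windows. The first count is of genes and the second of windows. The consensus is that of the class II module itself, so the contrast is a description and not a test. An X box match alone was found in 6.55% of all windows and CCAAT or ATTGG alone in 32.0%. The stretches below run 5′ to 3′ on the strand of the gene, with the X box and the Y box in capitals, and are reference sequence, not sequence read from these cells.
HLA-DMA: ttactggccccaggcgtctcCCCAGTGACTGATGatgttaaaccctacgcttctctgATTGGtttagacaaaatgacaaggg
HLA-DOB: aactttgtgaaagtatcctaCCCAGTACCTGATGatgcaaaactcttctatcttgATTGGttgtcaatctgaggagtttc
HLA-DQB1: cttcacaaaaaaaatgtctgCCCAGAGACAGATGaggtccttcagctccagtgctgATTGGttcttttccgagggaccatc
HLA-DRB1: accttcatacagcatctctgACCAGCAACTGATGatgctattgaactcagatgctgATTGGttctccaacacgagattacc
HLA-DPB1: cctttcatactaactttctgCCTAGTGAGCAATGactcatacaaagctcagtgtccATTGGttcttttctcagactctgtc
CD74: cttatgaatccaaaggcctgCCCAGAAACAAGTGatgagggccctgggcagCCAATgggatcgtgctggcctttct

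These stretches lie at chr6:32953152-32953233 for HLA-DMA, chr6:32817076-32817155 for HLA-DOB, chr6:32666721-32666801 for HLA-DQB1 and chr6:32589870-32589950 for HLA-DRB1, all on the minus strand. That of HLA-DPB1 lies at chr6:33075835-33075915 on the plus strand and that of CD74 at chr5:150412939-150413014 on the minus strand. HLA-DMA and HLA-DQB1 matched 14 of 14 letters of the X box, HLA-DOB and HLA-DRB1 matched 13, and HLA-DPB1 and CD74 matched 12. In the 5 HLA genes 21 to 23 bases separated the X box from the Y box, which read ATTGG. In CD74 the gap was 17 bases and the Y box read CCAAT, the same letters on the opposite strand. The best X box match of HLA-DQA1 had 11 letters, under the minimum, and the 2 windows of HLA-DPA1 held neither CCAAT nor ATTGG. A match is a description of these letters and not a measured binding site.

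In CD38 KO, the transcript of CIITA was less abundant than in WT, while most chains of the presenting molecules were equally or more abundant and the peptide editing genes HLA-DMA and HLA-DOB were lower. By edgeR's quasi-likelihood test, with Benjamini-Hochberg adjustment over all 20120 genes tested, 9 of the 10 genes were past an adjusted p of 0.05: 6 rose and 3 fell. Of all genes tested, 44.4% were past this threshold, 22.8% higher and 21.6% lower. Higher genes made up 51.4% of these calls, and 39.5% with library size alone, which shifted the median of all genes to -0.083 on the log2 scale. WT and knockout levels were fully apart for 9 of the 10 genes, all but HLA-DRA, and for 52.5% of all genes tested. The median log2 fold change of the 10 genes was 0.12, beside 0.00021 over all genes tested. CIITA, HLA-DOB and HLA-DQB1 were past an adjusted p of 0.05 with a change of at least 2-fold, as were 11.3% of all genes tested, and these 3 also passed edgeR's test against a 2-fold change, which 5.27% of all genes passed.

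**Figure D1:**
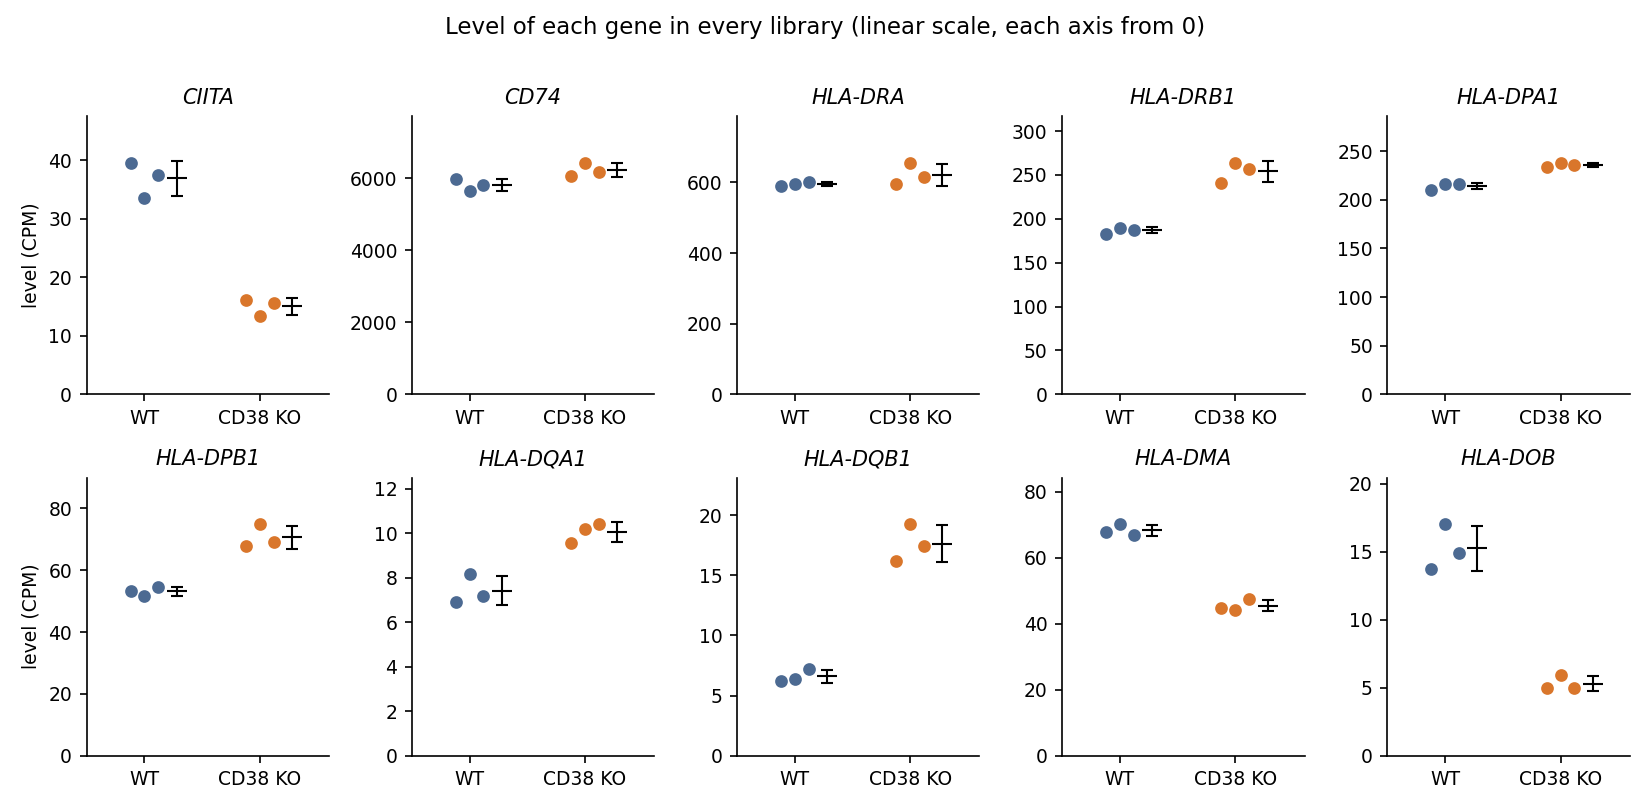
Level of each of the 10 genes in CPM on a linear axis from 0, with 1 point per library, WT in blue and CD38 KO in orange, and the mean and SD (n = 3) in black beside them. CIITA, HLA-DMA and HLA-DOB were lower in all 3 knockout libraries than in any WT library, HLA-DQB1 was higher, and the HLA-DRA points of the groups overlap.

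CIITA (ENSG00000179583; chromosome 16, 10866222 to 10943021 in GENCODE 29, build GRCh38) stood at 39.6, 33.6 and 37.5 CPM in WT libraries and at 16.1, 13.4 and 15.6 CPM in the knockout libraries. Every knockout library was below every WT library. The underlying counts were 2929, 2224 and 2460 against 1030, 798 and 968. CIITA fell 2.45-fold, or -1.29 ± 0.083 on the log2 scale (SE; edgeR adjusted p = 5.17e-11). The gene has several promoters, among them one used in B cells and one that answers to interferon gamma, and the counts are summed over its transcripts, so they do not say which was used. Of the 5 tested protein-coding genes within 300 kb of CIITA, a window chosen after the values were seen, 1 fell, NUBP1, and 4 were not past the threshold. Their log2 fold changes ran from -0.54 to 0.29, and 44.4% of all genes tested were past the threshold.

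CD74 (ENSG00000019582; chromosome 5, 150401637 to 150412929), the invariant chain and also a receptor for the cytokine MIF, was by far the most abundant of the 10 transcripts and took 0.587% to 0.622% of all counts in every library. Its level was 5988, 5636 and 5812 CPM in WT and, in the knockout, 6068, 6430 and 6170 CPM. The knockout libraries were all higher, the lowest of them by a margin smaller than the spread among the WT libraries. CD74 rose by 7.08%, or 0.099 ± 0.034 on the log2 scale (SE; edgeR adjusted p = 0.0218). Without WT replicate 2 or WT replicate 3 CD74 no longer passed (edgeR adjusted p = 0.0913 and 0.0880), nor did it with DESeq2 (0.0612), upper-quartile factors (0.0606), no filter on low counts (0.0650) and the replicate number as a block (0.0627). With library size alone the log2 fold change was 0.015 (edgeR adjusted p = 0.709). Over all alternatives the adjusted p of CD74 ran from 0.00240 (limma-voom) to 1 (edgeR's test against a 2-fold change). Mitochondrially encoded transcripts took 2.63% to 2.71% of counts in WT and 6.83% to 7.30% in the knockout, and their part in this difference was not tested.

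Among the 6 classical chains, 5 rose and 1, HLA-DRA, was not past the threshold. HLA-DRA (ENSG00000204287; chromosome 6, 32439842 to 32445046), the nearly invariant alpha chain of HLA-DR, was the most abundant chain, at 590.9, 595.7 and 601.4 CPM in WT and 594.0, 655.8 and 613.9 CPM in the knockout. The groups overlapped, since CD38 KO replicate 1 lay within the WT range. Its log2 fold change was 0.060, with a 95% interval from -0.022 to 0.14 (edgeR adjusted p = 0.235), and -0.024 with library size alone. HLA-DRB1 (ENSG00000196126; 32578769 to 32589848), the polymorphic beta chain that pairs with it, was at 183.2, 189.9 and 187.7 CPM in WT and at 241.2, 264.0 and 256.7 CPM in the knockout. The HLA-DRB1 groups were separated by a gap wider than the spread within either, and the gene rose by 35.8% (log2 fold change 0.44 ± 0.042, SE; edgeR adjusted p = 1.81e-08).

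HLA-DP forms a second class II molecule. Its alpha chain HLA-DPA1 (ENSG00000231389; 33064569 to 33080775) was at 210.7, 216.0 and 215.9 CPM in WT and at 233.9, 238.3 and 235.6 CPM in the knockout. These values do not overlap, and HLA-DPA1 rose by 10.2% (log2 fold change 0.14 ± 0.038, SE; edgeR adjusted p = 0.00454). With library size alone that call was lost, at a log2 fold change of 0.056 (edgeR adjusted p = 0.225), in a range of 0.00185 to 1 over all alternatives. The beta chain HLA-DPB1 (ENSG00000223865; 33075926 to 33087201) was at 53.4, 51.8 and 54.7 CPM in WT and at 68.0, 75.0 and 69.2 CPM in the knockout, a rise of 32.8% (log2 fold change 0.41 ± 0.053, SE; edgeR adjusted p = 1.66e-06). HLA-DPA1 and HLA-DPB1 overlap head to head on opposite strands in GENCODE 29, and whether the counting used strand is not given in the sources used here; reads of the overlap cannot be assigned.

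HLA-DQ, the third classical molecule, was at a much lower level than HLA-DR and held the largest rise among the 10 genes. HLA-DQB1 (ENSG00000179344; 32659467 to 32668383), its beta chain, was at 6.21, 6.35 and 7.22 CPM in WT and at 16.2, 19.3 and 17.4 CPM in the knockout. All 3 knockout libraries were more than double the highest WT library, and HLA-DQB1 rose 2.67-fold (log2 fold change 1.42 ± 0.10, SE; edgeR adjusted p = 1.97e-10). The alpha chain HLA-DQA1 (ENSG00000196735; 32628179 to 32647062) was at 6.89, 8.15 and 7.19 CPM in WT and at 9.56, 10.2 and 10.4 CPM in the knockout, a rise of 35.7% (log2 fold change 0.44 ± 0.11, SE; edgeR adjusted p = 0.00178). Both rest on few reads for this depth, 421 to 1147 counts per library for HLA-DQB1 and 472 to 645 for HLA-DQA1. HLA genes are highly polymorphic and alike in sequence, so reads may be lost against a reference allele or shared between genes, and the size of either was not tested.

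The peptide editing genes fell. HLA-DMA (ENSG00000204257; 32948613 to 32969094), the alpha chain of HLA-DM, was at 67.8, 70.3 and 66.9 CPM in WT and at 44.8, 44.2 and 47.4 CPM in the knockout. It fell by 33.5% (log2 fold change -0.59 ± 0.052, SE; edgeR adjusted p = 6.88e-09). HLA-DOB (ENSG00000241106; 32812763 to 32820466), the beta chain of HLA-DO, a molecule mainly found in B cells, was at 13.8, 17.0 and 14.9 CPM in WT and at 4.97, 5.93 and 4.99 CPM in the knockout. Its fall was 2.88-fold, the largest of the 10 genes in size (-1.52 ± 0.11 on the log2 scale, SE; edgeR adjusted p = 3.32e-10). For both genes every knockout library was below every WT library.

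**Figure D2:**
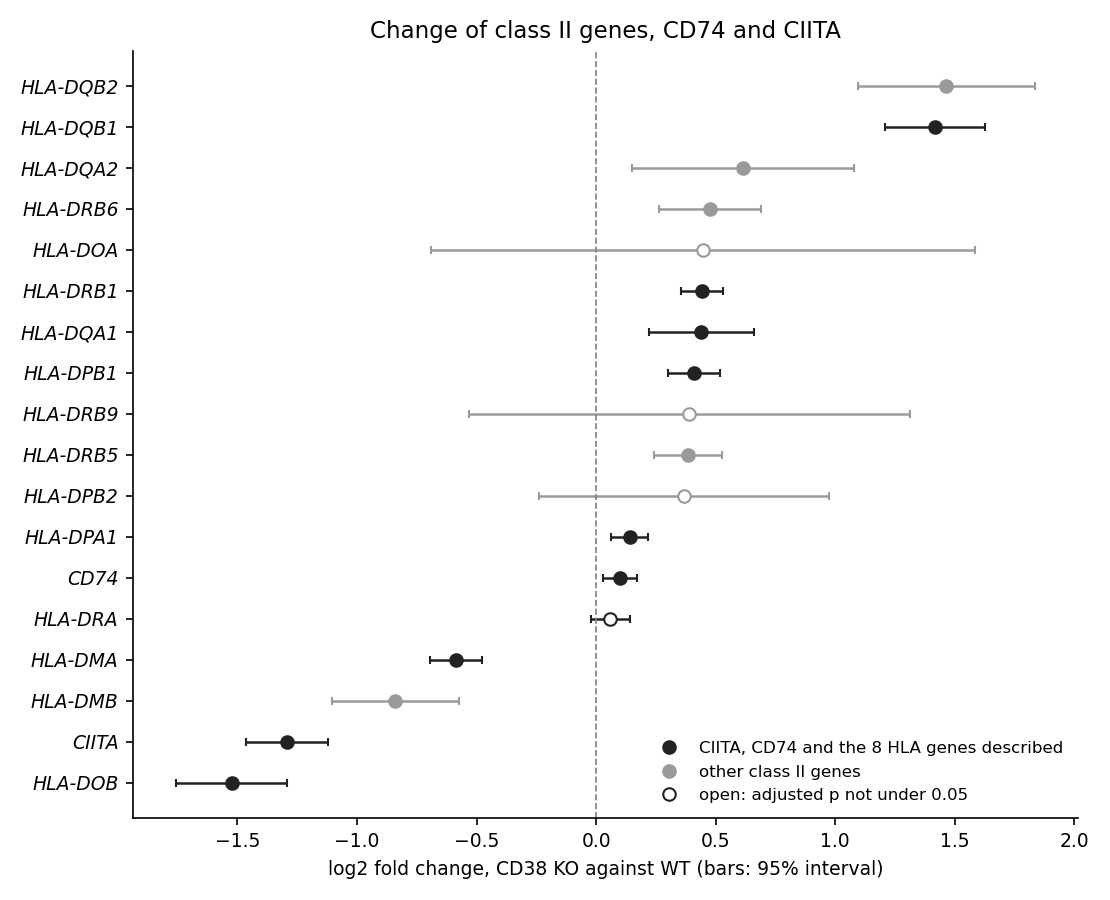
Log2 fold change of CD38 KO against WT with its 95% interval for the 10 genes (black) and for the 8 other class II genes that were tested (grey), with open circles where the edgeR adjusted p was not under 0.05. HLA-DQB1 and HLA-DQB2 stand at the high end and HLA-DMA, HLA-DMB, CIITA and HLA-DOB at the low end.

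Other class II genes include partner chains and close relatives of those above. Of 11 listed, 9 were in the table and 8 were tested. Of these 4 rose, 1 fell and 3 were not past the threshold, which 44.4% of all genes tested passed. Their median log2 fold change was 0.42. HLA-DMB, the partner chain of HLA-DMA, fell from 7.23 ± 0.519 to 4.04 ± 0.300 CPM (SD, n = 3). HLA-DQB2 rose from 1.95 ± 0.381 to 5.38 ± 0.858 CPM (SD, n = 3), a log2 fold change of 1.46, close to the 1.42 of HLA-DQB1, with which it may share reads. HLA-DRB5 and the pseudogene HLA-DRB6, relatives of HLA-DRB1, rose by 0.38 and 0.48 on the log2 scale. HLA-DOA, the partner chain of HLA-DOB, was at 0.174 ± 0.034 CPM in WT and 0.239 ± 0.122 CPM (SD, n = 3) in the knockout, 8 to 22 counts per library, and a change was not detectable at this depth (edgeR adjusted p = 0.547).

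Per kilobase of transcript, taken as the median length of the coding transcripts in GENCODE 29, the order of levels in WT was CD74, HLA-DRA, HLA-DRB1, HLA-DPA1, HLA-DMA, HLA-DPB1, HLA-DOB, CIITA, HLA-DQA1 and HLA-DQB1. CD74 stood at 5107 ± 154.6 CPM per kb (SD, n = 3), HLA-DRA at 465.6 ± 4.11 and HLA-DQB1 at 3.98 ± 0.328. In WT no neighbours in this order overlapped within 1 SD. In CD38 KO the first 4 places were the same, HLA-DPB1 (45.3 ± 2.40 CPM per kb) stood above HLA-DMA (40.5 ± 1.51), and HLA-DQB1 (10.6 ± 0.934) and HLA-DQA1 (8.33 ± 0.367) stood above HLA-DOB (3.86 ± 0.400) and CIITA (3.23 ± 0.309). HLA-DOB and CIITA overlapped within 1 SD there. Per unit length, the level of CD74 was 10.97 ± 0.388 times that of HLA-DRA in WT and 11.28 ± 0.232 times in the knockout (SD, n = 3).

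The summed level of the 8 HLA genes was 1133 to 1156 CPM in WT and, in the knockout, 1213 to 1313 CPM, a log2 ratio of 0.13 between the group means (two-sided exact permutation p = 0.1, the minimum for 3 against 3 libraries). With library size alone the groups overlapped, at a log2 ratio of 0.051 (two-sided exact permutation p = 0.3). Ratios of counts within a library do not depend on scaling. The log2 ratio of HLA-DRA to HLA-DRB1 counts was 1.69, 1.65 and 1.68 in WT and 1.30, 1.31 and 1.26 in the knockout. That of HLA-DPA1 to HLA-DPB1 was 1.98, 2.06 and 1.98 in WT and 1.78, 1.67 and 1.77 in the knockout, and that of HLA-DQA1 to HLA-DQB1 was 0.15, 0.36 and -0.0061 in WT and -0.76, -0.92 and -0.74 in the knockout. In all 3 pairs the ratio of alpha to beta chain was lower in every knockout library, by 0.38, 0.27 and 0.97 in that order (each two-sided exact permutation p = 0.1, the smallest possible, and 0.1 after Benjamini-Hochberg adjustment over the 3 pairs).

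Other ratios were chosen after the values were seen and are given without a test. Each CIITA count was matched by 14.9, 17.7 and 16.1 HLA-DRA counts in the WT libraries and by 36.9, 48.9 and 39.3 in the knockout libraries. HLA-DRA counts per HLA-DMA count were 8.71, 8.48 and 8.995 in WT and 13.3, 14.8 and 13.0 in the knockout. The groups are apart in both. CD74 counts per HLA-DRA count, by contrast, were 9.46 to 10.1 in WT and 9.81 to 10.2 in the knockout, and these ranges overlap.

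**Figure D3:**
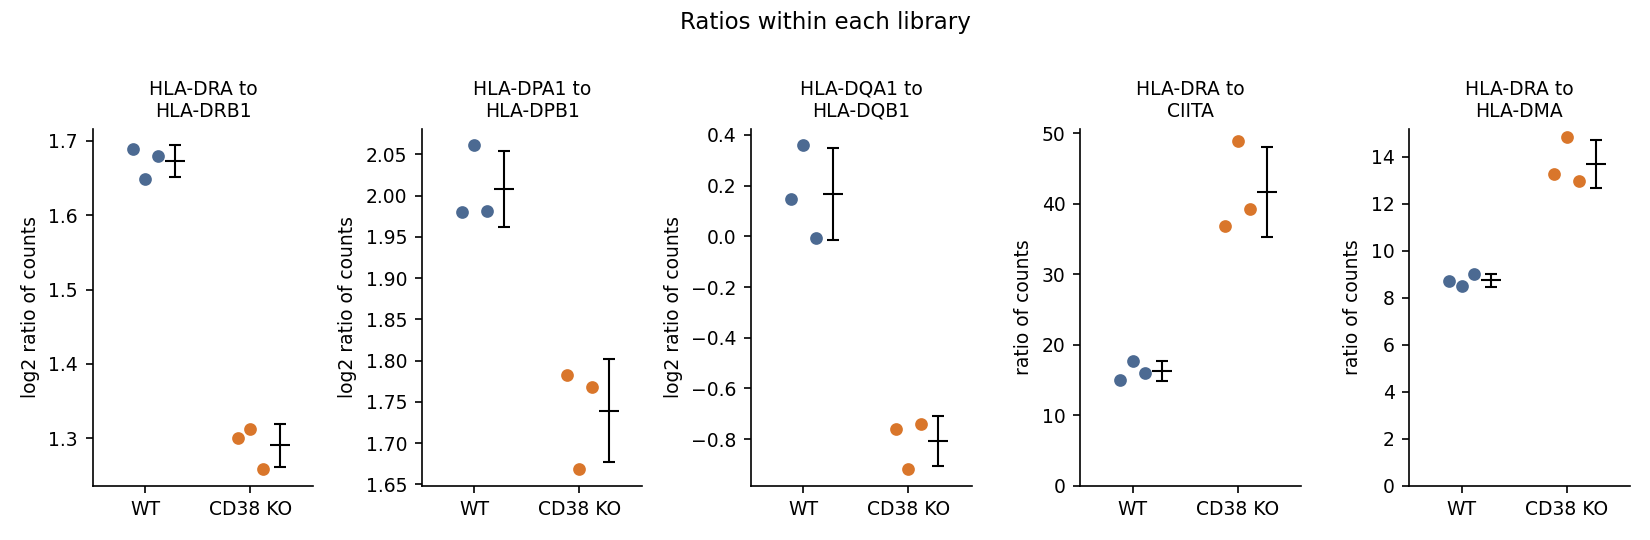
Ratios of counts within each library, with 1 point per library and the mean and SD (n = 3) in black: the log2 ratio of alpha to beta chain for HLA-DR, HLA-DP and HLA-DQ, and the ratio of HLA-DRA to CIITA and to HLA-DMA on axes from 0. The 3 alpha to beta ratios are lower and the other 2 ratios higher in every knockout library than in any WT library; the axes of the log2 ratios do not start at 0.

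Along the class II region of chromosome 6, listed genes that fell lay between stretches of listed genes that rose. In GENCODE 29 order, HLA-DOB is followed by TAP2, PSMB8, PSMB9 and TAP1 and then by HLA-DMB, HLA-DMA and BRD2. TAP1 and TAP2 form the peptide transporter of class I presentation, and PSMB8 and PSMB9 are catalytic subunits of the immunoproteasome. On the log2 scale TAP2 rose by 0.41, PSMB8 by 0.53, PSMB9 by 0.36 and TAP1 by 0.27, while HLA-DOB on one side had -1.52 and HLA-DMB on the other -0.84. BRD2, a chromatin reader whose annotated start overlaps HLA-DMA, fell by 0.17 on the log2 scale. Of the 8 listed genes of the region that are not class II genes, 6 were tested. Among them 4 rose, 1 fell and 1 was not past the threshold, which 44.4% of all genes tested passed. PSMB9 overlaps both PSMB8 and TAP1 in this annotation, so reads of these genes may not be separable.

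**Figure D4:**
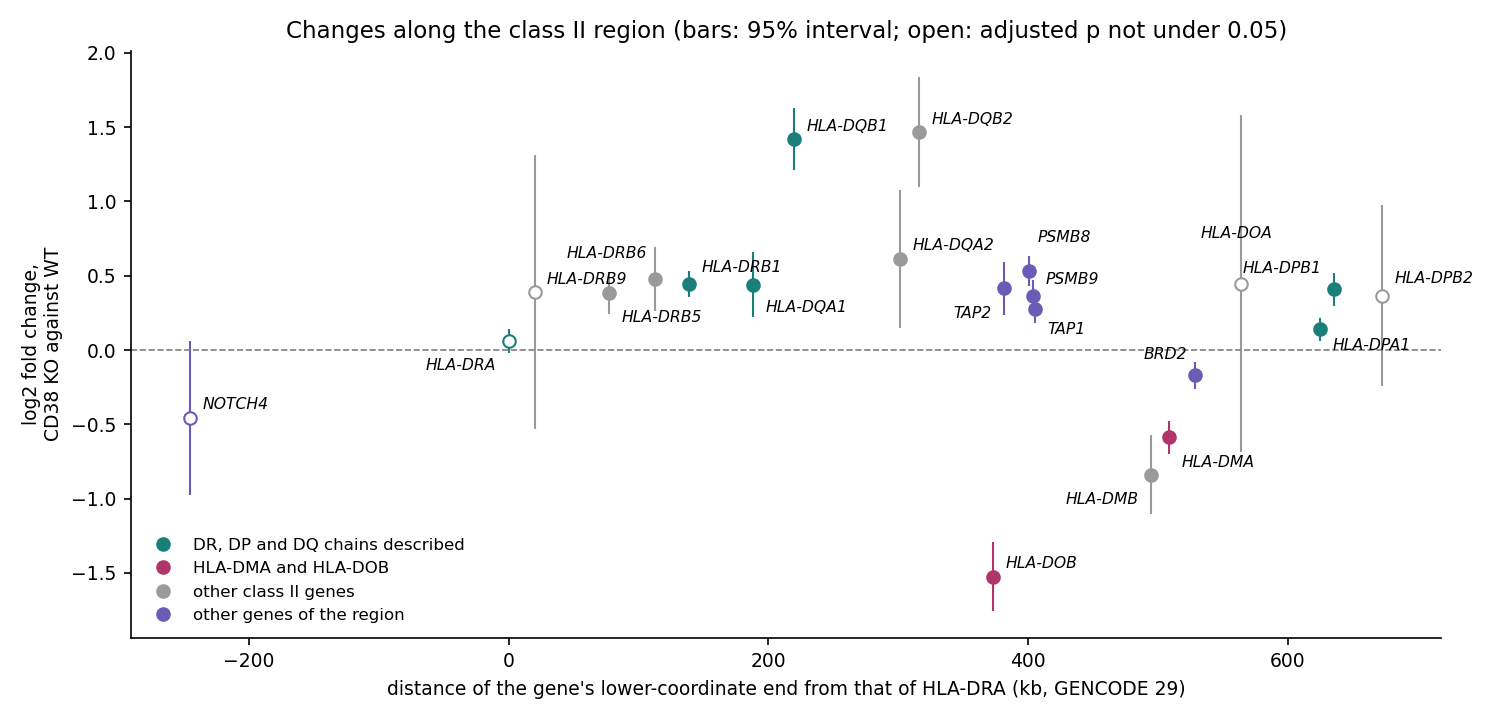
Log2 fold change with its 95% interval against the distance in kb of each gene's lower-coordinate end from that of HLA-DRA, for the tested class II genes and other listed genes of the region. HLA-DOB, HLA-DMB and HLA-DMA lie below 0 on either side of TAP2, PSMB8, PSMB9 and TAP1, which lie above 0.

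The transcription factors that hold CIITA at class II promoters changed in both directions. Of 12 genes of the promoter complex and its coactivators, 5 rose, 5 fell and 2 were not past the threshold (median log2 fold change -0.0097). Shares over all genes tested were 22.8% higher and 21.6% lower. RFXAP, a subunit of the RFX complex, rose from 7.43 ± 0.460 to 14.05 ± 1.22 CPM, and the chromatin remodelling ATPase SMARCA4 from 298.3 ± 6.43 to 496.8 ± 3.80 CPM (SD, n = 3). RFX5, the DNA-binding subunit of the same complex, and NFYC, a subunit of NF-Y, fell by 0.26 and 0.32 on the log2 scale.

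Of 9 known or candidate regulators of CIITA transcription, 8 were tested. Among these 4 rose, 2 fell and 2 were not past the threshold, which 44.4% of all genes tested passed. Their median log2 fold change was 0.074, and -0.0093 with library size alone. SPI1, the lymphoid and myeloid transcription factor PU.1, fell from 43.4 ± 1.15 to 18.4 ± 1.23 CPM (SD, n = 3), a log2 fold change of -1.24. The repressor PRDM1 rose from 768.0 ± 18.6 to 899.2 ± 8.77 CPM (SD, n = 3). TCF3 rose by a log2 fold change of 0.94, and EZH2, a histone methyltransferase of the Polycomb complex, fell by 0.30. PAX5, which maintains B cell identity, was too low to be tested. Whether any of these genes had a part in the fall of CIITA was not tested.

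Interferon gamma is the main inducer of CIITA outside B cells and dendritic cells, and genes of its signalling list changed in both directions. Of 10 tested, 6 rose, 1 fell and 3 were not past the threshold (median log2 fold change 0.18). Set beside this, 22.8% of all genes tested were higher and 21.6% lower. The transcription factor IRF1 rose from 122.6 ± 2.65 to 192.0 ± 8.45 CPM (SD, n = 3). The receptor chain IFNGR2 rose by a log2 fold change of 0.47 and the feedback inhibitor SOCS3 by 5.17. With RLE, upper-quartile or no composition factors IFNGR1 was no longer among the genes that rose, which left 5. JAK2 joined those that fell with library size alone, which made 2.

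Endosomal proteases and other genes that process CD74 and antigen were all past the threshold, 6 lower and 4 higher of 10 (median log2 fold change -0.46). Past it were also 44.4% of all genes tested, 21.6% lower and 22.8% higher. CTSS, the cathepsin that makes the last cuts of CD74 in B cells, fell from 192.3 ± 1.66 to 113.8 ± 2.07 CPM, and SPPL2A, which clears the remaining CD74 fragment from the membrane, from 89.2 ± 3.01 to 44.8 ± 0.695 CPM (SD, n = 3). LGMN, the asparaginyl endopeptidase, fell by 0.63 on the log2 scale. CTSL, a lysosomal cysteine protease, was at 30.8 ± 0.645 CPM (SD, n = 3) in WT and was not counted once (0 counts) in any knockout library, which puts it at least 634-fold lower if each library is set to the floor of 3 counts. The 4 that rose were CTSF, CTSV, CTSH and IFI30.

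**Figure D5:**
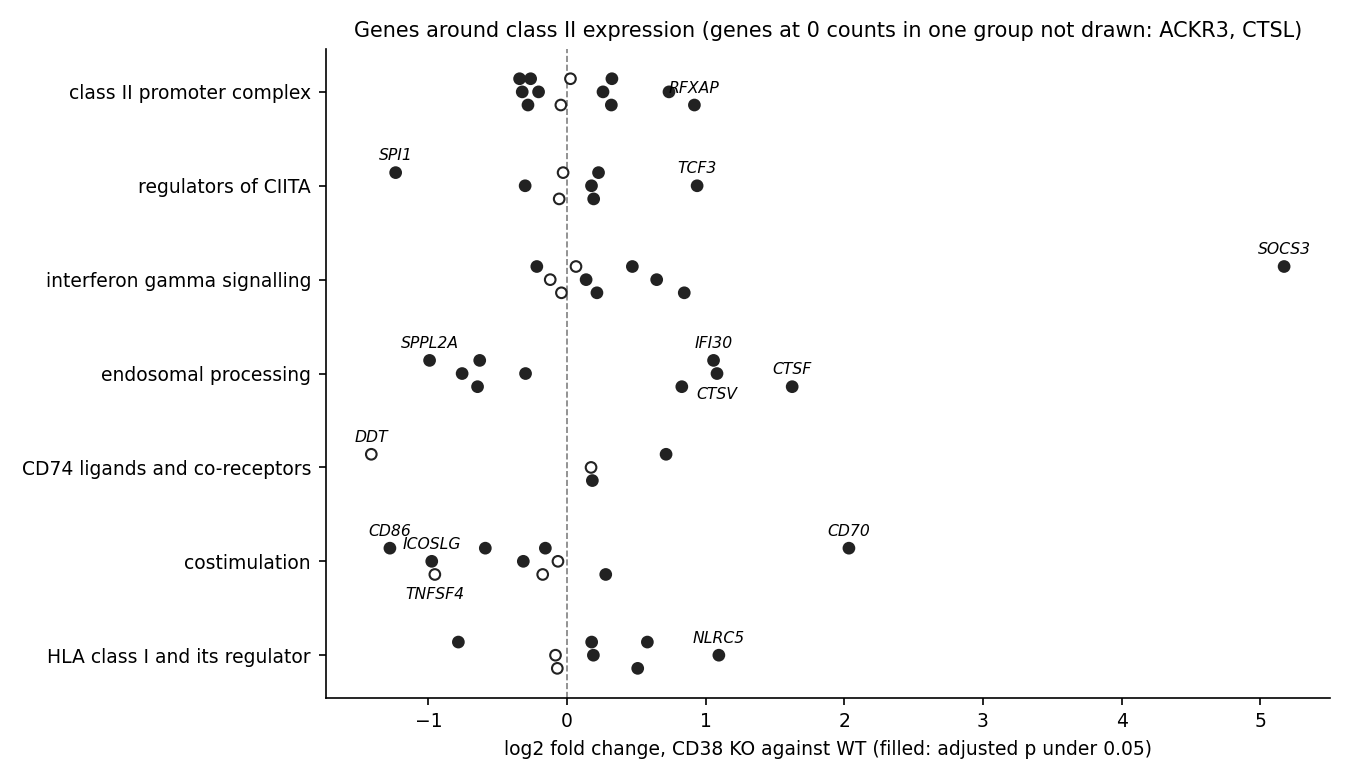
Log2 fold change of every tested gene of 7 lists around class II expression, with filled circles at an edgeR adjusted p under 0.05 and names where the size was above 0.9. Each list holds genes on both sides of 0, and CTSL and ACKR3, with 0 counts in 1 group, are not drawn.

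MARCHF8, one of the ubiquitin ligases that remove class II molecules from the surface, fell by 0.24 on the log2 scale, and MARCHF1, the other listed, was not past the threshold at 0.770 ± 0.068 CPM in WT and 0.930 ± 0.296 CPM in the knockout (SD, n = 3). Of 6 ligands and co-receptors of CD74, 5 were tested. Of these 3 rose and 2 were not past the threshold, which 44.4% of all genes tested passed. CD44, the signalling partner of CD74, rose by a log2 fold change of 0.18 and CXCR4, one of its chemokine receptor partners, from 11.9 ± 0.356 to 19.6 ± 0.334 CPM (SD, n = 3). ACKR3, another such receptor, had 0 counts in WT and was at 2.69 ± 0.552 CPM (SD, n = 3) in the knockout, at least 61.4-fold higher with the same floor. The ligand MIF was listed too low to be tested, at 0.075 ± 0.068 CPM in WT and 0.096 ± 0.055 CPM in the knockout (SD, n = 3). How reads shared with near-identical copies were counted is not known, so this value is uncertain and is not a measure of whether the cells express MIF.

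Costimulatory and coinhibitory ligands, which T cells read together with class II, moved in both directions. Of the 10, 2 were higher, 5 lower and 3 not past the threshold (median log2 fold change -0.25). Beside these counts, 22.8% of all genes tested were higher and 21.6% lower. CD86, a ligand of CD28, fell from 29.7 ± 1.14 to 12.2 ± 0.460 CPM (SD, n = 3). Its relative CD80 was under 1 CPM in both groups. ICOSLG and PDCD1LG2 fell by 0.98 and 0.59 on the log2 scale. CD70, the ligand of CD27, rose from 26.9 ± 0.820 to 110.1 ± 3.91 CPM (SD, n = 3).

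HLA class I offers a comparison within the same cells. Of 8 genes, 5 rose, 1 fell and 2 were not past the threshold, which 44.4% of all genes tested passed. NLRC5, the relative of CIITA that transactivates class I genes, rose from 6.02 ± 0.402 to 12.9 ± 1.13 CPM (SD, n = 3), or 1.10 ± 0.11 on the log2 scale (SE), opposite in direction to CIITA. On the log2 scale HLA-E rose by 0.51 and HLA-F by 0.58, and B2M fell by 0.78.

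Likeness of pattern was measured as the distance between profiles of log2 CPM (prior count 2) over the 6 libraries, each centred on its mean. The search covered 9577 tested protein-coding genes with a mean of at least 5 CPM, from which the 10 genes described here were left out. The genes nearest to CD74 were RANBP3, SIRT2, TUFM, PIGT and NCLN, at distances of 0.025 to 0.042. Nearest to HLA-DRA, the HLA gene with the most counts, were CCT7, HSPA4, EIF3G, MBOAT7 and MYDGF, at 0.022 to 0.043. By this rule none of the 10 genes could appear in either set of 5. Most other class II genes were under this level, so the absence of class II genes was largely fixed in advance. No gene of the other lists above was among either set. Genes as flat as these are common, since 17.5% of all genes tested had a smaller log2 fold change in size than CD74.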

How the data were processed

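The authors deposited 1 table of raw read counts per gene, with 1 column per library, per the file headers. The submitters' processing notes list DESeq2, Partek and STAR 2.7.9a and give no role for any. For the counting program, strand setting, build and annotation, the answer is the same: not given in the sources used here. Of 60871 lines, 200 were repeats of another line, identifier and counts alike, and were dropped. Sampling noise alone did not account for the spread within groups (chi-square per degree of freedom 5.49 or more for each pair of libraries).

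The knockout and WT libraries entered 1 fit in R 4.3.3, the quasi-likelihood test of edgeR 4.0.16 (TMM factors, filterByExpr, robust estimates, no covariate), with Benjamini-Hochberg adjustment over 20120 genes. SE and 95% intervals of log2 fold changes come from that fit. The procedure was run on simulated data with few changed genes, raised and lowered in about equal number. That run does not test scaling where many genes change, as they do here. Summed levels and ratios of chains (0.5 added to each count) were tested by exact permutation over samples. The labels call the libraries biological replicates prepared from the sorted populations, so p-values measure the spread between these preparations. At this depth a count of 0 allows 3 counts, at most 0.0504 CPM in a library. This floor covers counting error only.

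The 10 genes, the gene lists and the tests were chosen with earlier results of these data known. From each list the text names the up to 4 genes with the smallest adjusted p, any other gene being chosen after its values were seen. Some listed genes are counted but not reported here by name. Coordinates, gene order and lengths are from GENCODE 29, which may not be the annotation used for counting, and promoter sequences are from RefSeq (GRCh38.p14). Other fits used library size without composition factors, RLE or upper-quartile factors, limma-voom (limma 3.58.1), DESeq2 1.42.0, a test against a 2-fold change, a block for the replicate number, identifiers of a symbol summed, leave-one-out sets of libraries, and, as filters, none or 1 CPM in 3 libraries. For the sums and ratios, other gene sets and other added counts were tried.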

Additional observations from a re-analysis of the deposited data

How the results depend on the processing

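The number of the 10 genes called was 9, and 7 to 9 under 15 of the 16 alternatives, while the test against a 2-fold change called 3. Over all genes that test called 1061, against 8934 in the reported fit. Of all genes tested, the reported fit called 44.4%. The other 15 alternatives called 21.2% (no filter on low counts) to 58.1% (filter at 1 CPM in 3 libraries). With 1 library left out, 8 to 9 of the 10 genes were called, beside 37.3% to 42.1% of all genes tested. CIITA, HLA-DOB and HLA-DQB1 kept direction and call under all 16, with log2 fold changes of -1.37 to -1.22, -1.61 to -1.44 and 1.34 to 1.49. HLA-DMA, HLA-DRB1, HLA-DPB1 and HLA-DQA1 lost the call only against a 2-fold change, by that test's construction. The call of HLA-DPA1 was lost there and with library size alone, and that of CD74 under 8 alternatives. HLA-DRA turned to -0.024 with library size alone. The cause of the changes with scaling was not tested. The summed chain level kept its direction under all 11 alternatives, and the 3 chain ratios under all 8. Same-numbered libraries of the 2 groups did not deviate together (correlations of -0.021 to 0.034 across genes), so the labels' numbers were not taken to pair them. With the replicate block 8 of the 10 genes were called, 5 higher and 3 lower, CD74 being the one lost. That fit called 44.3% of all genes tested. Few counts limit HLA-DOA, with 8 to 22 per library.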
